A study of Mus musculus with 9 samples.

Results

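The genes described here are 10 of the 55385 genes counted in a CITE-seq study of mouse spleen, and they were taken by symbol: Foxp3, Ikzf2, Il2ra, Tnfrsf4, Tnfrsf18, Icos, Ctla4, Pdcd1, Tigit and Izumo1r. All 10 symbols had 1 row each in the count files. CITE-seq reads the transcripts and the antibody tags of the same single cells, and here it was run on total splenocytes sorted with DAPI, a dye that enters dead cells. The mice were homozygous for the R594C change in IRE1 (R594C/R594C), heterozygous for it (R594C/+) or wild type (WT). IRE1, encoded by Ern1, is the sensor of protein folding stress whose RNase domain splices the Xbp1 transcript, and the series asked whether the R594C change alters the make-up of the immune cells.

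Hashtag antibodies marked 2 replicates of R594C/R594C, 4 of R594C/+ and 4 of WT. Nothing in the labels ties a replicate to a mouse of its own, so the p-values cover the spread between these samples, which may be technical. Age and sex are not given in the labels, and no other allele or treatment is named. Each genotype was captured once by itself, and an effect of the capture cannot be told apart from one of the genotype. The same holds for any staining done per genotype. Counts per gene do not show a point change, and the genotype labels were not checked against the data. Xist, the RNA made from an inactive X chromosome, exceeded 300 CPM (counts among 1000000 UMIs) in 1 of 2 R594C/R594C replicates, in 4 of 4 R594C/+ replicates and in 1 of 4 WT replicates. R594C/+ and WT therefore differ in Xist as well as in genotype, and Foxp3 lies on the X chromosome.

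The 3 captures held 17444 barcodes of R594C/R594C, 17980 of R594C/+ and 16027 of WT, with medians of 3188, 3479 and 3512 RNA UMIs per barcode in that order (a UMI is a molecular tag that counts 1 captured molecule). After doublets and barcodes with no hashtag were left out, 40987 cells remained, 13954 of R594C/R594C, 14706 of R594C/+ and 12327 of WT, with 2945 to 7267 cells per replicate. Between 68 and 89 barcode sequences were shared by any pair of captures, and these were counted as separate cells.

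Regulatory T cells are CD4 T cells that restrain immune responses, and the transcription factor Foxp3 sets their identity. They carry the high-affinity IL-2 receptor, which takes up the IL-2 they depend on, and they carry many receptors that other CD4 T cells gain only after activation. Some of those receptors costimulate T cells, such as ICOS, OX40 and GITR. Others are checkpoints that dampen T cell signalling, such as CTLA-4, PD-1 and TIGIT. In spleen, follicular helper T cells and chronically stimulated CD8 T cells also carry checkpoint receptors, so these genes do not mark a single cell type.

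Of the 10 genes, 7 also had an antibody in the panel of 191, and each antibody is read through a DNA barcode of 15 bases. The barcodes are shown because the protein values given with the RNA values are counts of these sequences. Each line gives the antibody's target and its gene before the barcode.
CD25, Il2ra: accatgagacacagt
CD134, Tnfrsf4: ctcacctacctatgg
CD357, Tnfrsf18: ggcactctgtaacat
CD278 (first barcode), Icos: cgcgcacccattaaa
CD278 (second barcode), Icos: actgccatatcccta
CD152, Ctla4: agtgtttgtcctggt
CD279, Pdcd1: gaaagtcaaagcact
TIGIT, Tigit: gaaagtcgccaacag
CD278, the ICOS protein, was listed under 2 barcodes that differ at 12 of 15 positions. The second had 0 UMIs in every class, so CD278 values are those of the first. Foxp3 and Ikzf2 encode nuclear proteins and had no antibody. The panel also held an antibody named Folate, which no label pairs with Izumo1r, so Izumo1r was described from its RNA alone.

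By the RefSeq annotation of the mouse assembly GRCm38.p6, 4 of the genes lie on chromosome 1 and 2 pairs are neighbours. Ctla4 spans chr1:60909025-60915832 and Icos chr1:60960773-61000322, 44940 bases apart. Tnfrsf4 spans chr4:156013595-156016613 and Tnfrsf18 chr4:156026322-156028894, 9708 bases apart. Ikzf2 lies at chr1:69531207-69687351, Pdcd1 at chr1:94038305-94052553, Il2ra at chr2:11642792-11693194, Izumo1r at chr9:14885814-14903951, Tigit at chr16:43626137-43665125 and Foxp3 at chrX:7579676-7595243.

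Windows of 250 bases, listed as upstream, could be taken from the RefSeq promoter table for 8 of the 10 genes, with 2 windows for Foxp3, so 9 windows in all. Not all lie outside the gene spans given above. The window of Tigit (chr16:43664185-43664434) and the second of Foxp3 (chrX:7580233-7580482) lie within them. Those of Tnfrsf4 (chr4:156013445-156013694) and Izumo1r (chr9:14903768-14904017) overlap them. GGAAA, a core letter string of sites bound by NFAT, which acts downstream of the T cell receptor, stood on either strand in 9 of 9 windows, against 55.6% of the 32851 mouse windows of the same length. The forkhead string TGTTTAC was in 0 of 9 windows, against 3.17% of all windows. TGANTCA, the string bound by AP-1, was also in 0 of 9, against 6.75%. These matches describe letters and not bound sites. The windows of Foxp3 (the upstream one of its 2, chrX:7579426-7579675, + strand), Il2ra (chr2:11642542-11642791, + strand) and Ctla4 (chr1:60908775-60909024, + strand) are shown because these 3 genes separate the Foxp3-positive cells, the IL-2 receptor and the checkpoint receptors in the results. Capitals mark TTTCC, which is GGAAA read on the other strand.
Foxp3: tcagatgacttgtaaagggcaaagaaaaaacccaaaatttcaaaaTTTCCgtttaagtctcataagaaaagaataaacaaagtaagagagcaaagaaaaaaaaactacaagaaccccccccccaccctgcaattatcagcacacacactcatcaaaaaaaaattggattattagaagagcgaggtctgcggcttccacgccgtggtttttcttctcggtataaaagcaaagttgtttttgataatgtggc
Il2ra: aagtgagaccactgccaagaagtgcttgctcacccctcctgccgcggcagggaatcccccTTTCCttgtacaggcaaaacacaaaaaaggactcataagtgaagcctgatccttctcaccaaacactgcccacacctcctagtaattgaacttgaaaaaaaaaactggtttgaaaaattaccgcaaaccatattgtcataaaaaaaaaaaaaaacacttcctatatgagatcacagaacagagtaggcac
Ctla4: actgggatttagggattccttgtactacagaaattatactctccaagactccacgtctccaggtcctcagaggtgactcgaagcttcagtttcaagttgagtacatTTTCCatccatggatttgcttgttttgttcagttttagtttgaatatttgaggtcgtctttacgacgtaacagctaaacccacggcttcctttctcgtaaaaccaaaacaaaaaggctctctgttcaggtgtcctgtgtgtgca

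Levels were compared over 7 classes of cells, made by clustering the RNA with the 10 genes kept out of the clustering genes. Names follow marker lists, and the classes called naive CD4, activated CD4, CD8 T and B are T-like and B-like clusters. Naive CD4 cells were the 3436 cells of a cluster led by Igfbp4 and Lef1 that passed 7 of 10 naive T markers. Activated CD4 cells were the 1831 cells of a cluster led by Tnfsf8, Sostdc1, Spry1 and Maf that passed 11 of 14 activated T markers, and its leading genes included Il21, Izumo1r and Tnfrsf4. Cells with a Foxp3 UMI were taken out of both of these classes, so Foxp3 is 0 there by construction. The Foxp3-rich cluster held 1245 cells and was led by Areg, Ikzf2, Tnfrsf4, Foxp3, Tnfrsf9, Izumo1r, Ctla4 and Lrrc32, and it is called by its gene because no marker list for regulatory T cells was used to name clusters.

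Foxp3-positive CD4 cells were the 643 cells with at least 1 Foxp3 UMI among 6583 cells of these 3 CD4 clusters. Left out of all classes were 170 shallow cells of another cluster (median 725 UMIs, 33.9 CD4 tag UMIs per cell), with 104 CPM of Foxp3. It held 28 cells of R594C/R594C, 81 of R594C/+ and 61 of WT. Also left out was a T cell cluster of 82 cells led by H2ac8 and Pclaf, with 24.4 CPM of Foxp3. Of the 643, 572 lay in the Foxp3-rich cluster, 31 in the activated cluster and 40 in the naive cluster. CD8 T cells numbered 4877 and B cells 20846. The CD8 T class pooled a cluster of 3038 cells led by Cd8b1 and Dapl1 with a cluster of 1839 cells led by Ctla2a, Yes1, Gzmm and Ccl5. The former held 1226 cells of R594C/R594C, 948 of R594C/+ and 864 of WT, and the latter 463, 624 and 752. The part of this mix in the CD8 T values was not tested. The Gzmk-high CD8 cluster held 740 cells and was led by Gzmk, Ccl5, Ifng, Nkg7, Eomes, Rgs16, Ctla2a and Pdcd1. It and the whole Foxp3-rich cluster were added as classes after the clusters had been seen. B cell transcripts in the Foxp3-rich cluster, summed over 10 marker genes, came to 1106 to 1301 CPM in R594C/R594C, 1693 to 3609 CPM in R594C/+ and 1352 to 1868 CPM in WT, and their part in the genotype comparisons was not tested.

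CPM values are UMIs of a gene among 1000000 UMIs of that class in 1 replicate. They come from tags at the transcripts' 3′ ends and are not scaled for length, so each gene is compared with itself across classes and not with other genes. Where no test is named, differences between classes are descriptions, because the classes were made from the RNA of the same cells.

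Foxp3, the transcription factor that sets regulatory T cell identity, averaged 566 ± 78.7 CPM in the Foxp3-positive CD4 cells (SD, n = 10), which were chosen by it, and among the other classes it was highest in the Foxp3-rich cluster. There it had 302 and 301 CPM in the R594C/R594C replicates, 316, 231, 289 and 376 CPM in the R594C/+ replicates and 257, 246, 333 and 184 CPM in the WT replicates. The 3 genotypes overlapped, and the lowest value was that of WT replicate 4, with 52 cells. A Foxp3 UMI was seen in 45.9% of the Foxp3-rich cells (median 2659 UMIs per cell), in 1.66% of the activated cluster and in 1.15% of the naive cluster. The share was 0.267% of CD8 T cells (median 4376 UMIs) and 0.125% of B cells (median 2779 UMIs), which should lack the transcript. None of the 740 Gzmk-high cells held a Foxp3 UMI, which allows a share of cells with a Foxp3 UMI of up to 0.405%. This limit covers counting error only and does not bound the cells that express Foxp3, since most Foxp3-rich cells gave no Foxp3 UMI either.

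Ikzf2 encodes Helios, a zinc finger factor found in many regulatory T cells. It averaged 2432 ± 121 CPM in the Foxp3-rich cluster and 537 ± 96.9 CPM in activated CD4 cells (SD, n = 10 replicates each). The lowest Foxp3-rich replicate, at 2178 CPM, was above the highest activated replicate, at 688 CPM. Naive CD4 cells ranged from 3.04 to 146 CPM, and the highest of these values belonged to R594C/+ replicate 1, with 49 naive cells. Outside the CD4 cells, Ikzf2 averaged 178 ± 44.8 CPM in CD8 T cells and 145 ± 58.5 CPM in the Gzmk-high cluster, so it was not confined to Foxp3-positive cells. B cells had 2.52 ± 1.04 CPM (SD, n = 10 each). Of the clusters pooled as CD8 T cells, the Cd8b1-led cluster had 61.3 CPM of Ikzf2 and the Ctla2a-led cluster 321 CPM.

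Il2ra encodes CD25, the alpha chain that gives the IL-2 receptor its high affinity. In the Foxp3-rich cluster it had 129 and 133 CPM in R594C/R594C, 130.2, 142, 146 and 153 CPM in R594C/+ and 136, 180.2, 105 and 36.8 CPM in WT. WT replicate 4 was the low value, and without it the cluster lay above every activated CD4 replicate, of which the highest had 43.9 CPM. The naive CD4, CD8 T, Gzmk-high and B classes stayed under 20 CPM in every replicate. A UMI of Il2ra was detected in 18.6% of Foxp3-rich cells, 4.81% of activated CD4 cells and 0.542% of B cells.

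Tnfrsf4 (OX40) and Tnfrsf18 (GITR) are costimulatory receptors of the TNF receptor family. Tnfrsf4 had 1058 and 1223 CPM in the Foxp3-rich cluster of R594C/R594C, 1230.0, 929, 999 and 1009.6 CPM in that of R594C/+ and 1122, 1074, 1064 and 788 CPM in that of WT. Its mean was 1049.7 ± 131 CPM there and 509 ± 108 CPM in activated CD4 cells (SD, n = 10 each), and the replicates of the classes did not overlap. It was low outside them, with a mean of 28.3 CPM in naive CD4 cells, 14.6 CPM in the Gzmk-high cluster, 3.26 CPM in CD8 T cells and 2.92 CPM in B cells. Tnfrsf18 had 392 and 473 CPM in the Foxp3-rich cluster of R594C/R594C, 534, 396, 375 and 402 CPM in that of R594C/+ and 456, 444, 398 and 321 CPM in that of WT. WT replicate 4 was the lowest for both genes. Tnfrsf18 averaged 419 ± 59.4 CPM in the Foxp3-rich cluster and 153 ± 22.0 CPM in activated CD4 cells, again without overlap. Unlike Tnfrsf4, it kept 52.1 ± 13.8 CPM in naive CD4 cells, 59.4 ± 8.69 CPM in CD8 T cells and 15.3 ± 2.47 CPM in B cells (SD, n = 10 each). The naive CD4, CD8 T and Gzmk-high replicates overlapped in their Tnfrsf18 levels, and these 3 classes are not ordered.

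Icos encodes the costimulatory receptor ICOS, a relative of CD28. Foxp3-rich cells had 966 and 1109 CPM in R594C/R594C, 1176, 931, 1132 and 1098 CPM in R594C/+ and 959.8, 963, 1241 and 1162 CPM in WT. It was the gene of the group that was most evenly shared by the Foxp3-rich and activated cells, with 1074 ± 109.7 CPM in the Foxp3-rich cluster and 1009 ± 118 CPM in activated CD4 cells (SD, n = 10 each). These ranges overlapped widely. Naive CD4 cells had 318 ± 46.7 CPM, the Gzmk-high cluster 219 ± 90.8 CPM and CD8 T cells 177 ± 40.3 CPM, and B cells had 2.83 ± 0.852 CPM. An Icos UMI was present in 80.0% of Foxp3-rich cells, 77.1% of activated and 46.8% of naive CD4 cells.

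Ctla4 encodes CTLA-4, a checkpoint receptor that competes with CD28 for its ligands. In the Foxp3-rich cluster it had 1201 and 1524 CPM in R594C/R594C, 1293, 1202, 1139 and 1295 CPM in R594C/+ and 1236, 1642, 1289 and 1298 CPM in WT. Every one of these replicates was above the highest activated CD4 replicate, at 826 CPM. Ctla4 averaged 183 ± 75.6 CPM in the Gzmk-high cluster, 69.3 ± 37.5 CPM in naive CD4 cells, 34.8 ± 9.88 CPM in CD8 T cells and 28.2 ± 10.2 CPM in B cells (SD, n = 10 each). The last 3 classes overlapped.

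Pdcd1 encodes PD-1, a checkpoint receptor of stimulated T cells. Foxp3-rich cells had 173 and 277 CPM in R594C/R594C, 274, 208, 146 and 215 CPM in R594C/+ and 232, 270.3, 230.5 and 194 CPM in WT. The genotypes overlapped. Pdcd1 averaged 222 ± 43.9 CPM in the Foxp3-rich cluster, 171 ± 51.0 CPM in activated CD4 cells and 159.8 ± 133 CPM in the Gzmk-high cluster (SD, n = 10 each), and these 3 classes overlapped. Naive CD4 cells had 5.87 ± 4.45 CPM and CD8 T cells 4.95 ± 3.12 CPM. In B cells Pdcd1 averaged 1.17 CPM.

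Tigit encodes a checkpoint receptor of the same name that binds CD155. It gave few UMIs, with 22.9 ± 6.59 CPM in the Foxp3-rich cluster, 10.7 ± 10.0 CPM in the Gzmk-high cluster and 8.58 ± 5.17 CPM in activated CD4 cells (SD, n = 10 each). The Foxp3-rich values were 20.8 and 20.0 CPM in R594C/R594C, 24.7, 28.5, 26.6 and 30.1 CPM in R594C/+ and 14.7, 20.8, 11.4 and 31.5 CPM in WT, and the WT replicates alone spanned the range. Naive CD4 cells averaged 0.635 CPM of Tigit, CD8 T cells 1.20 CPM and B cells 0.119 CPM. A Tigit UMI was seen in 6.35% of Foxp3-rich cells and in 0.0336% of B cells. Izumo1r encodes folate receptor 4, a surface protein of regulatory and anergic CD4 T cells. It averaged 816 ± 104 CPM in the Foxp3-rich cluster and 515 ± 84.5 CPM in activated CD4 cells, without overlap. Naive CD4 cells had 88.7 ± 36.9 CPM of Izumo1r, the Gzmk-high cluster 28.1 ± 14.5 CPM, CD8 T cells 13.3 ± 6.27 CPM and B cells 3.39 ± 1.07 CPM (SD, n = 10 each).

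**Figure D1:**
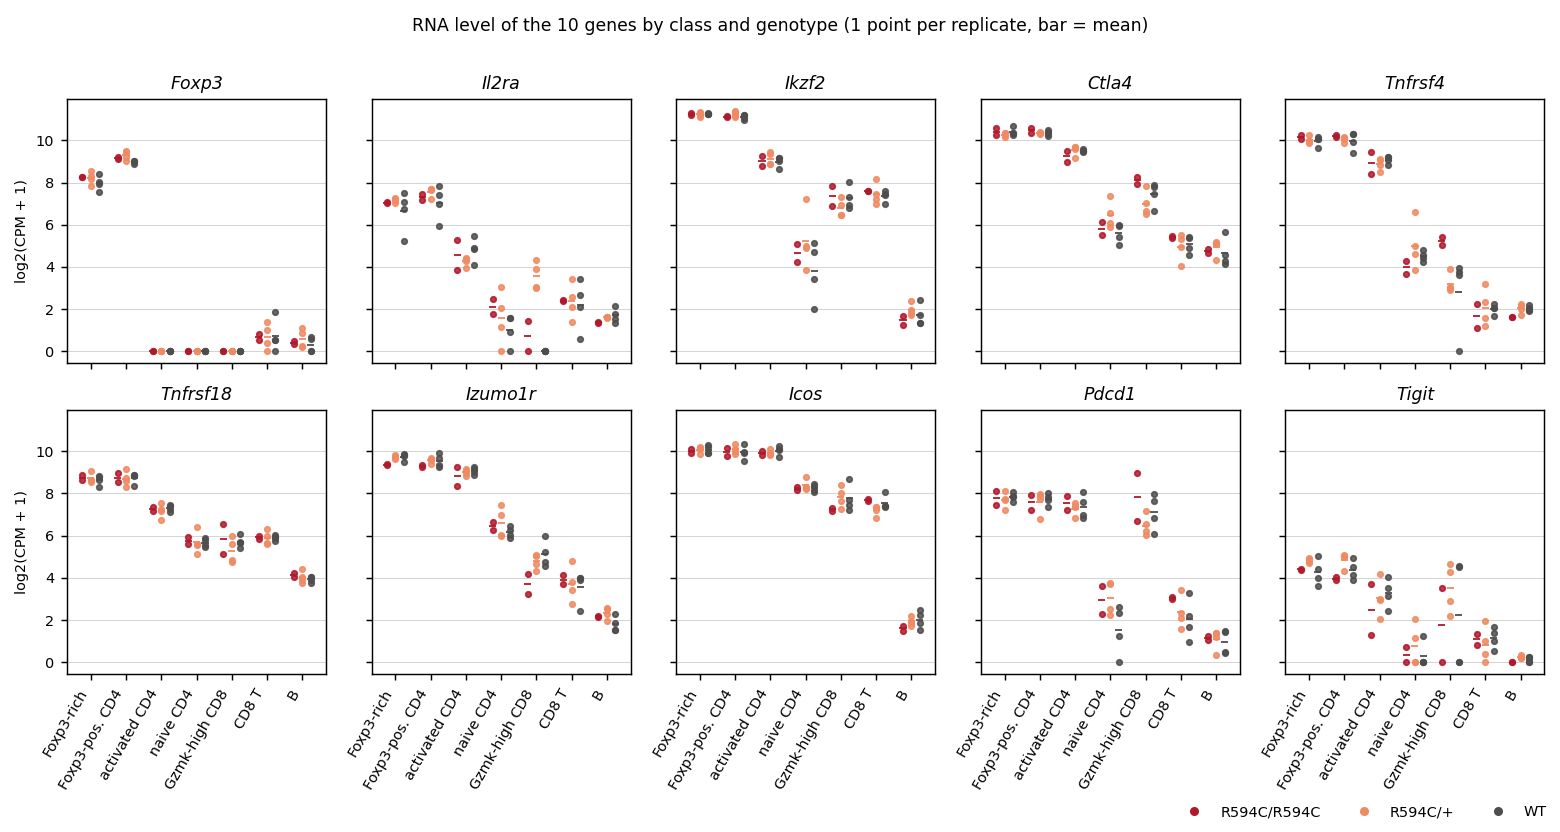
Each panel plots 1 gene as log2(CPM + 1) on the vertical axis for the 7 classes, with R594C/R594C, R594C/+ and WT side by side, points for replicates and a bar for the mean. Ikzf2, Tnfrsf4, Tnfrsf18, Ctla4 and Izumo1r are highest in the Foxp3-rich and Foxp3-positive classes with no overlap between the Foxp3-rich cluster and activated CD4 cells, while Icos, Pdcd1, Il2ra and Tigit overlap between them.

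Single cells of some classes held UMIs of several of the genes. Whether this exceeds what the detection rate of each gene in the class gives was not tested. Foxp3-rich cells with a Foxp3 UMI held UMIs of a median of 6 of the other 9 genes, and Foxp3-rich cells without one held a median of 5. The median was 4 in activated CD4 cells and 1 in naive CD4, CD8 T and Gzmk-high cells, and it was 0 in B cells. At least 4 of the other 9 were seen in 92.7% of Foxp3-rich cells with a Foxp3 UMI, 86.5% of those without one, 57.6% of activated CD4 cells and 1.66% of naive CD4 cells. Foxp3-rich cells without a Foxp3 UMI were the shallower ones, with a median of 2513 UMIs per cell, against 2899.5 in those with one, and the part of this depth in the counts was not tested.

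To test differences between classes without the RNA having made the classes, cells were gated on surface antibody tags. UMIs were summed per replicate and gate and tested with edgeR's quasi-likelihood test with the replicate as a block, and p-values were adjusted over all genes by Benjamini-Hochberg. CD4-tagged T cells (6560 cells, median 3058 UMIs) were first set against CD8-tagged T cells (4161 cells, median 4214 UMIs). Leaving out Foxp3, which CD8 cells nearly lacked, each of the other genes was called higher in the CD4 cells (adjusted p below 0.05) and was higher in 10 of 10 replicates. Of all 10557 genes tested, 19.1% were called higher. The size of the difference set the genes apart.

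Foxp3 ranged from 26.0 to 92.3 CPM in CD4 cells (median 47.7) and from 0 to 2.05 CPM in CD8 cells (median 0), from 1060 and 7 UMIs in all. With 7 of 10 CD8 replicates at 0, Foxp3 passed the filter on low counts through the CD4 cells, and its fitted fold, which depends on the prior count, is not ranked. Among the other 9 genes Tnfrsf4 had the largest log2 fold, 6.33 (SE 0.12, edgeR adjusted p 4.4e-20). Izumo1r followed at 4.19 (SE 0.11), Il2ra at 2.93 (SE 0.20), Ctla4 at 2.73 (SE 0.14), Ikzf2 at 2.28 (SE 0.15), Pdcd1 at 2.25 (SE 0.40) and Tigit at 1.81 (SE 0.29), with edgeR adjusted p-values of at most 0.00137. The smallest log2 folds were those of Icos, 1.57 (SE 0.10), and Tnfrsf18, 1.36 (SE 0.08), both of which CD8 cells also held.

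CD62L, a homing receptor that T cells shed on activation, was then used to divide the CD4 cells. CD62L-low cells (2567 cells, median 2841 UMIs) were set against CD62L-high cells (2865 cells, median 3273 UMIs). Leaving out Tigit, each of the other 9 genes was called higher in the CD62L-low cells, against 17.7% of 8991 genes. Tigit had 98 UMIs in CD62L-low cells and 13 in CD62L-high cells, where 2 of 10 replicates held none, and its log2 fold of 2.84 (SE 0.42) is not ranked for that reason. Among the other 9 genes Pdcd1 had the largest log2 fold. It ranged from 94.5 to 252 CPM in CD62L-low cells (median 162) and from 7.02 to 87.7 CPM in CD62L-high cells (median 30.4), a log2 fold of 2.50 (SE 0.22, edgeR adjusted p 5.2e-06). Pdcd1 levels of the gates did not overlap.

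Ctla4 ranged from 559 to 938 CPM in CD62L-low cells and from 117 to 342 CPM in CD62L-high cells, a log2 fold of 1.88 (SE 0.09, edgeR adjusted p 4.0e-10). Tnfrsf4 had a log2 fold of 2.08 (SE 0.17), Ikzf2 of 1.99 (SE 0.22) and Izumo1r of 1.57 (SE 0.17). Foxp3 had a log2 fold of 1.51 (SE 0.23, edgeR adjusted p 2.2e-04) and was higher in 9 of 10 replicates, while the other 9 genes were higher in 10 of 10. Tnfrsf18, Il2ra and Icos had the smallest log2 folds, 1.20 (SE 0.09), 1.10 (SE 0.17) and 0.99 (SE 0.06).

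Within the CD62L-low CD4 cells, those with a Foxp3 UMI (353 cells, median 2805 UMIs) were set against those without (2214 cells, median 2847 UMIs), which answers what sets Foxp3-positive cells apart from other CD62L-low CD4 cells. The cells without a UMI may include cells whose Foxp3 transcripts were not captured. Foxp3 itself defined these groups and is left out. All 9 other genes were called higher in the Foxp3-positive cells, against 5.49% of 6745 genes, but the order of the genes was another one than for CD62L.

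Il2ra came first, with 73.8 to 199.7 CPM in Foxp3-positive cells (median 161) and 11.5 to 42.5 CPM in Foxp3-negative cells (median 19.1), a log2 fold of 2.64 (SE 0.20, edgeR adjusted p 1.6e-20). Ikzf2 ranged from 1961 to 2736 CPM in Foxp3-positive cells and from 503 to 1031 CPM in Foxp3-negative cells, a log2 fold of 1.63 (SE 0.08, edgeR adjusted p 8.5e-35). Neither gene overlapped between the groups. Tnfrsf18 had a log2 fold of 1.37 (SE 0.11), Tnfrsf4 of 1.23 (SE 0.18) and Ctla4 of 1.05 (SE 0.09), with edgeR adjusted p-values of at most 6.8e-04.

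The smaller log2 folds were those of Izumo1r, 0.69 (SE 0.10), Pdcd1, 0.60 (SE 0.14), and Icos, 0.41 (SE 0.08), with edgeR adjusted p-values of at most 0.00105. Pdcd1 was higher in 8 of 10 replicates and overlapped, with 159.9 to 345 CPM in Foxp3-positive cells and 85.2 to 258 CPM in Foxp3-negative cells. Tigit had a log2 fold of 1.34 (SE 0.43, edgeR adjusted p 0.0234), and the call was lost, at edgeR adjusted p-values of 0.0515, 0.0829 and 0.0538, when R594C/+ replicate 1, R594C/+ replicate 3 or WT replicate 2 was left out. Leaving Tigit aside for its few UMIs, the largest log2 fold was that of Pdcd1 between the CD62L gates and that of Il2ra between Foxp3-positive and Foxp3-negative cells.

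**Figure D2:**
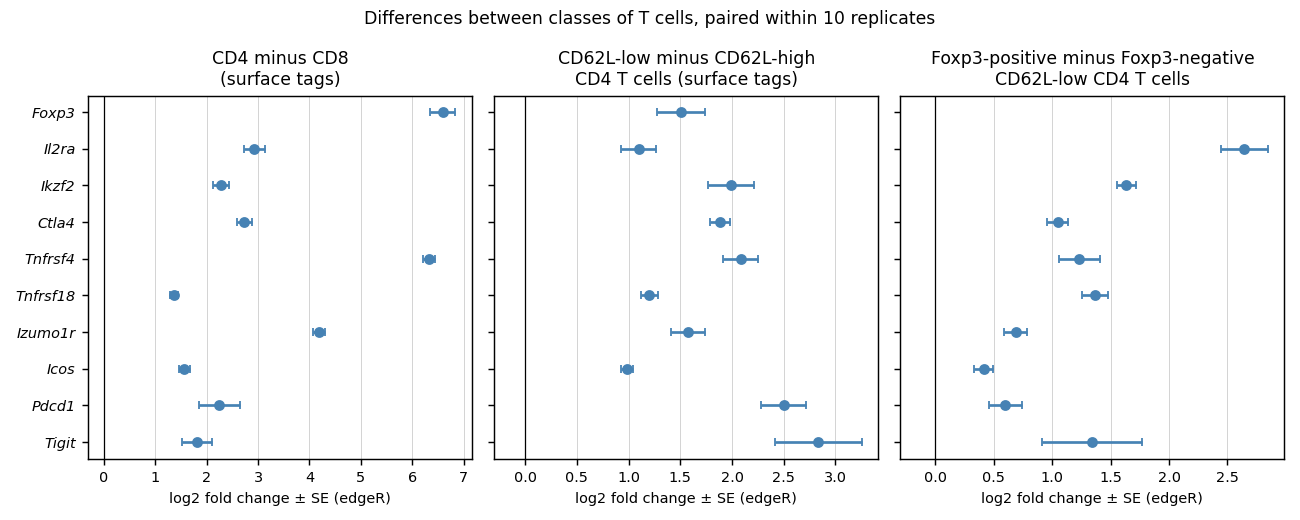
The 3 panels give the log2 fold of each gene, as a point with its SE, between antibody-gated CD4 and CD8 T cells, between CD62L-low and CD62L-high CD4 T cells, and between Foxp3-positive and Foxp3-negative CD62L-low CD4 T cells (without Foxp3, which defined the groups). All log2 folds lie above 0, and the order of the genes differs between the panels: the points furthest right are Foxp3 and Tnfrsf4 in the first, Tigit and Pdcd1 in the second and Il2ra in the third. Foxp3 in the first panel rests on 7 UMIs in CD8 cells, and Tigit in the second on 13 UMIs in CD62L-high cells.

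Other genes of these pathways were described from 6 lists. Of 20 genes of the regulatory T cell programme, 19 could be tested between Foxp3-positive and Foxp3-negative CD62L-low CD4 cells, and 14 were called higher and 0 lower, against 5.49% higher and 7.06% lower of all genes, with a median log2 fold of 0.89 (all genes -0.01). The same shares stand behind the other lists of this comparison. The largest was Itgae, the alpha E integrin that binds E-cadherin, at 3.09 (SE 0.36, edgeR adjusted p 1.1e-11). Klrg1, an inhibitory receptor, had a log2 fold of 2.83. Lrrc32, which encodes GARP, the docking protein for latent TGF-beta, had 2.72. The 5 genes not called were Il10, a suppressive cytokine, at -0.58 (edgeR adjusted p 0.451), Socs2, a feedback inhibitor of cytokine signalling, at -0.51, Nrp1, neuropilin 1, at 0.02, Tgfb1, the cytokine TGF-beta 1, at 0.27 and Entpd1, the ectoenzyme CD39, at 0.30.

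Among 9 tested genes of other checkpoint and exhaustion proteins, 0 were called higher and 4 lower in Foxp3-positive cells, against 7.06% of all genes called lower, with a median log2 fold of -0.45. The 4 were Cd200 at -1.04, Btla at -0.72, Cd6 at -0.60 and Cd5 at -0.45, all genes of surface proteins that dampen or adjust T cell responses. Lag3 had 0.01 (edgeR adjusted p 0.992). Of 8 tested genes of follicular helper T cells, 3 were called lower. Among them were Il21, the cytokine that helps B cells, at -4.99 (edgeR adjusted p 7.9e-15), and Cd40lg, the ligand that licenses B cells, at -2.19. UMIs of Il21 in the Foxp3-positive cells are not given here, and the size of its log2 fold may depend on the prior count. Slamf6 was the third, at -1.25, and Sh2d1a was called higher at 0.58.

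In the IL-2 signalling list, 2 of 9 tested genes were called higher in Foxp3-positive cells, Cish at 0.94, a feedback inhibitor of cytokine signalling, and Il2rb at 0.63, the beta chain of the IL-2 receptor, and 1 was called lower, the survival gene Bcl2 at -0.89. The median was 0.12. Of 5 tested ligand genes, 1 was called higher, Pdcd1lg2 at 0.79, which encodes a PD-1 ligand, with a median of 0.11. Of 6 costimulation genes, Tnfrsf9 at 2.37, Cd2 at 0.65 and Cd27 at 0.53 were called higher, and Cd28 at -0.76 and Cd40lg at -2.19 lower.

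Between CD62L-low and CD62L-high CD4 cells, where 17.7% of all genes were called higher and 16.5% lower, 17 of 19 programme genes were called higher and 0 lower (median log2 fold 1.49, all genes 0.01), as were 8 of 9 other checkpoint genes (median 0.74) and 9 of 9 follicular helper genes (median 1.37). The largest were Socs2 at 3.00 and Il10 at 2.61 in the programme, Lag3 at 2.69 and Cd160 at 2.24 among checkpoint genes, and Il4 at 3.36 and Tox2 at 3.00 among follicular helper genes. The other counts were 4 higher and 3 lower of 10 IL-2 signalling genes, 4 higher and 1 lower of 6 ligand genes and 6 higher and 0 lower of 6 costimulation genes.

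Between CD4 and CD8 T cells 19.1% of all genes were called higher and 20% lower. Of the programme genes, 18 of 20 were called higher and 2 lower (median log2 fold 1.81, all genes -0.01). Lrrc32, at 6.43, and Il10, at 4.45, were among those higher, and Itgae, at -1.83, was lower in CD4 cells. Of 11 other checkpoint genes, 6 were called higher, led by Cd200 at 3.75 and Lag3 at 3.32, and 2 lower, among them Cd160 at -1.95. The follicular helper genes were called higher in 9 of 9, among them Il21 at 7.74 and Cd40lg at 5.50. UMIs of the list genes in CD8 cells are not given here. Large log2 folds such as those of Lrrc32 and Il21 may depend on the prior count, as for Foxp3, and are not ranked. The remaining counts were 4 higher and 5 lower of 10 IL-2 signalling genes, 6 higher and 0 lower of 8 ligand genes, and 5 higher and 1 lower (Cd226, at -1.06) of 6 costimulation genes.

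The antibody tags gave a second readout of 7 of the genes, separate from the RNA. CD357, the GITR protein, gave the most UMIs of the 7 tags in the Foxp3-rich cluster. It had 40.2 and 37.3 UMIs per cell in the Foxp3-rich cluster of R594C/R594C, 43.7, 33.6, 37.7 and 42.9 in that of R594C/+ and 38.3, 29.5, 33.8 and 43.0 in that of WT. Every one of these replicates was above every replicate of activated CD4 cells, which averaged 14.6 ± 3.35 UMIs per cell, of naive CD4 cells, at 8.73 ± 2.81, and of B cells, at 6.54 ± 2.47 (SD, n = 10 each).

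CD278, the ICOS protein, averaged 16.4 ± 4.06 UMIs per cell in the Foxp3-rich cluster and 11.6 ± 1.65 in activated CD4 cells (SD, n = 10 each), and 1.72 in naive CD4 cells and 0.319 in B cells. TIGIT had 1.72 and 1.52 UMIs per cell in the Foxp3-rich cluster of R594C/R594C, 1.80, 1.55, 0.913 and 1.68 in that of R594C/+ and 2.01, 1.69, 1.57 and 1.73 in that of WT. The low value was that of R594C/+ replicate 3. TIGIT averaged 1.62 ± 0.285 UMIs per cell in the Foxp3-rich cluster, 0.631 in activated CD4 cells, 0.473 in the Gzmk-high cluster and 0.112 in B cells. CD279, the PD-1 protein, had 1.15 and 1.25 UMIs per cell in the Foxp3-rich cluster of R594C/R594C, 1.42, 1.29, 1.54 and 1.29 in that of R594C/+ and 1.28, 1.39, 1.03 and 1.37 in that of WT. It averaged 1.30 ± 0.143 in the Foxp3-rich cluster, 1.03 ± 0.254 in activated CD4 cells, 0.545 in the Gzmk-high cluster and 0.0970 in B cells. Leaving out the Foxp3-positive class, the class means of CD278 stood in the same order as those of Icos RNA, while TIGIT protein was higher in activated CD4 cells than in the Gzmk-high cluster and Tigit RNA, from few UMIs, had means in the other order.

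CD25 was low on all cells. In the Foxp3-rich cluster it had 0.356 and 0.315 UMIs per cell in R594C/R594C, 0.379, 0.408, 0.481 and 0.472 in R594C/+ and 0.349, 0.393, 0.514 and 0.288 in WT, and the genotypes overlapped. The mean was 0.396 ± 0.0740 UMIs per cell there and 0.0898 to 0.149 in the means of the naive and activated CD4, CD8 T, Gzmk-high and B classes (SD, n = 10). CD134, the OX40 protein, had 0.526 ± 0.285 UMIs per cell in the Foxp3-rich cluster and 0.232 in B cells. CD152, the CTLA-4 protein, had 0.248 UMIs per cell in the Foxp3-rich cluster and 0.260 in B cells, and its class means lay between 0.231 and 0.260. That is the level of the 6 isotype control antibodies, which averaged 0.0581 to 0.504 UMIs per cell in the Foxp3-rich cluster. The means of CD25 and CD134 there lay within and just above the same range. CTLA-4 is held mostly inside cells, and its tag showed no class with a raised level although Ctla4 RNA did.

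Between the whole Foxp3-rich and activated CD4 clusters, which were made without the tags, 6 of the 7 tags were called higher in the Foxp3-rich cluster with the replicate as a block, against 26.3% of 156 tags. CD25 had a log2 fold of 1.47 (SE 0.17, edgeR adjusted p 7.6e-07), TIGIT of 1.45 (SE 0.13, 3.1e-08 by the same test) and CD357 of 1.41 (SE 0.08, 1.3e-11). CD134 at 0.57 (SE 0.14), CD278 at 0.49 (SE 0.07) and CD279 at 0.40 (SE 0.13) were smaller. Without WT replicate 1, 3 tags were called, and CD134 (edgeR adjusted p 0.0976), CD278 (0.113) and CD279 (0.473) were not. CD279 was also not called with DESeq2 (adjusted p 0.185), without a filter on low counts (edgeR adjusted p 0.0683) or without the replicate block (edgeR adjusted p 0.152), and CD134 was not without the block (edgeR adjusted p 0.294). The CD279 call was lost as well, at edgeR adjusted p-values of 0.105, 0.0814, 0.137 and 0.116, when R594C/R594C replicate 2, R594C/+ replicate 2, R594C/+ replicate 3 or WT replicate 2 was left out. CD152 had a log2 fold of 0.15 (SE 0.17, edgeR adjusted p 0.548).

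In the comparison of Foxp3-positive with Foxp3-negative CD62L-low CD4 cells, 4 of 7 tags were called higher, against 13.4% of 149 tags. CD357 had a log2 fold of 1.00, TIGIT of 0.98, CD25 of 0.97 and CD278 of 0.58, with edgeR adjusted p-values of at most 9.7e-05. CD279 at 0.31 (edgeR adjusted p 0.0934), CD134 at 0.10 and CD152 at -0.04 did not pass, while CD279 passed with DESeq2 (0.48, adjusted p 0.0171), without a filter on low counts, or without R594C/R594C replicate 1, R594C/R594C replicate 2 or WT replicate 2. The log2 fold of CD25 protein, 0.97, was smaller than that of Il2ra RNA, 2.64, in the same cells, and this difference was not tested.

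**Figure D3:**
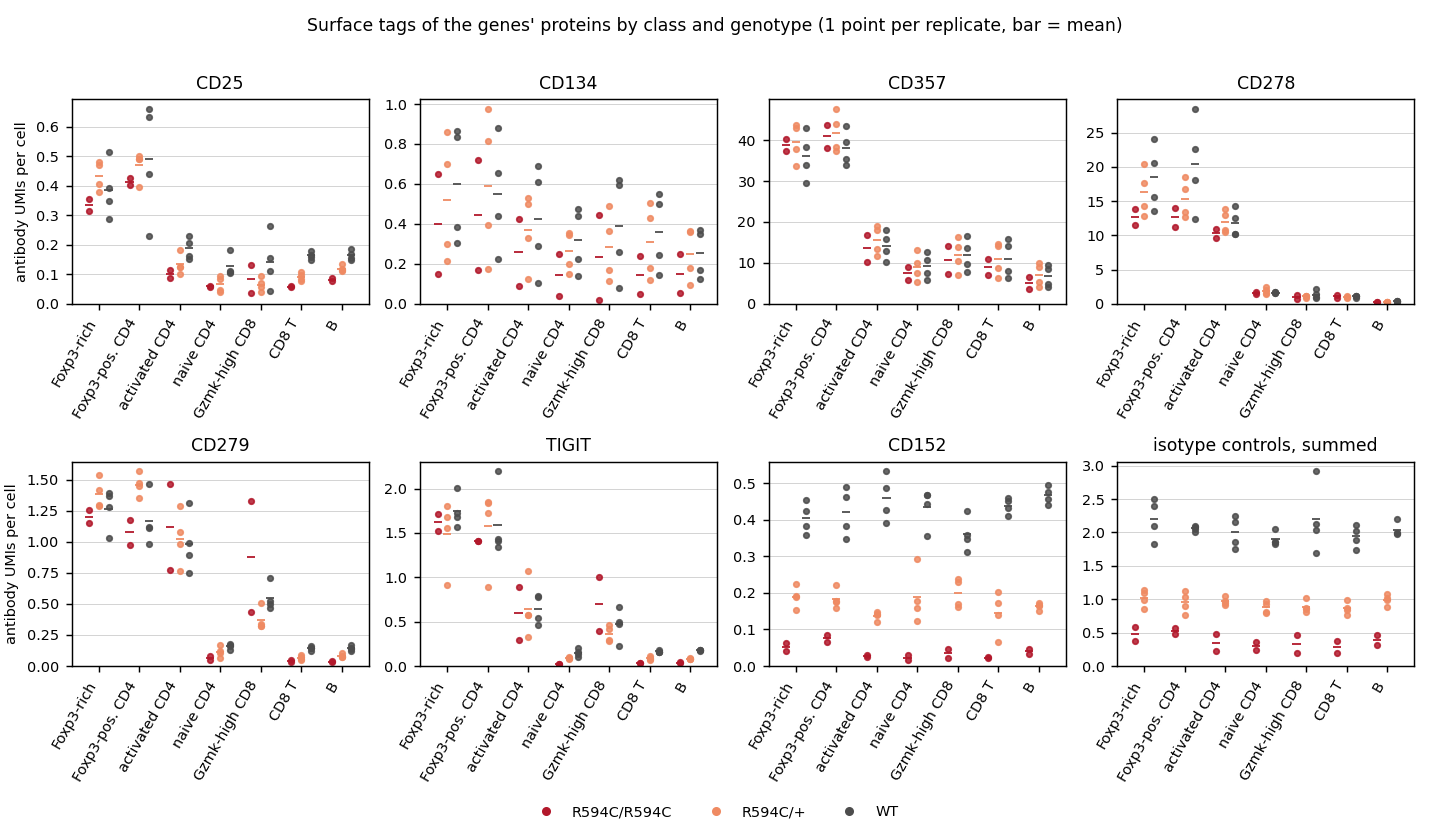
Each panel gives the UMIs per cell of 1 antibody tag, or of the isotype controls summed, for the 7 classes and the 3 genotypes, with points for replicates and a bar for the mean. CD357, CD278, TIGIT, CD279 and CD25 are highest in the Foxp3-rich and Foxp3-positive classes, whereas CD152 and the isotype controls are flat across classes and lowest in R594C/R594C.

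The share of CD4 T cells that were Foxp3-positive overlapped between the genotypes, and no difference passed the test. It was 10.8% and 7.67% in the R594C/R594C replicates (82 of 761 and 107 of 1395 cells), 16.0%, 11.8%, 7.27% and 12.6% in R594C/+ (of 476, 434, 867 and 637 cells), and 8.95%, 9.02%, 12.5% and 5.57% in WT (of 458, 543, 545 and 467 cells). The groups overlapped, and R594C/+ replicate 1 was the highest, with an exact binomial 95% interval of 12.8% to 19.6%, while WT replicate 4 was the lowest, with 3.67% to 8.05%. These intervals cover counting error only.

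The means were 9.22% ± 2.20 in R594C/R594C (SD, n = 2), 11.9% ± 3.58 in R594C/+ and 9.01% ± 2.82 in WT (SD, n = 4 each). R594C/R594C minus WT was 0.218 percentage points (two-sided exact permutation p 0.867, adjusted 0.867, over 15 assignments). R594C/+ minus WT was 2.88 percentage points (exact permutation p 0.257, adjusted 0.771, over 70 assignments). The correlation with the number of R594C alleles was 0.129 (exact permutation p 0.718, adjusted 0.867, over 3150 assignments). With 2 replicates against 4, the test cannot give a p below 0.0667, and a missed threshold does not show that the shares were alike.

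The naive share of the same CD4 cells ranged from 10.5% in R594C/+ replicate 1 to 70.6% in R594C/R594C replicate 2, and its part in the Foxp3-positive share was not tested. When naive cells were left out of the denominator, the means were 23.1% in R594C/R594C, 17.7% in R594C/+ and 18.3% in WT, and the sign of R594C/+ minus WT turned, to -0.590 percentage points. The whole Foxp3-rich cluster made up 16.7% ± 3.58, 25.7% ± 10.3 and 16.6% ± 3.92 of the CD4 cells of R594C/R594C, R594C/+ and WT, and R594C/+ minus WT was 9.16 percentage points (exact permutation p 0.143, adjusted 0.429). With every cell thinned to 1500 UMIs, the Foxp3-positive shares were 6.69% in R594C/R594C, 8.83% in R594C/+ and 5.91% in WT.

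**Figure D4:**
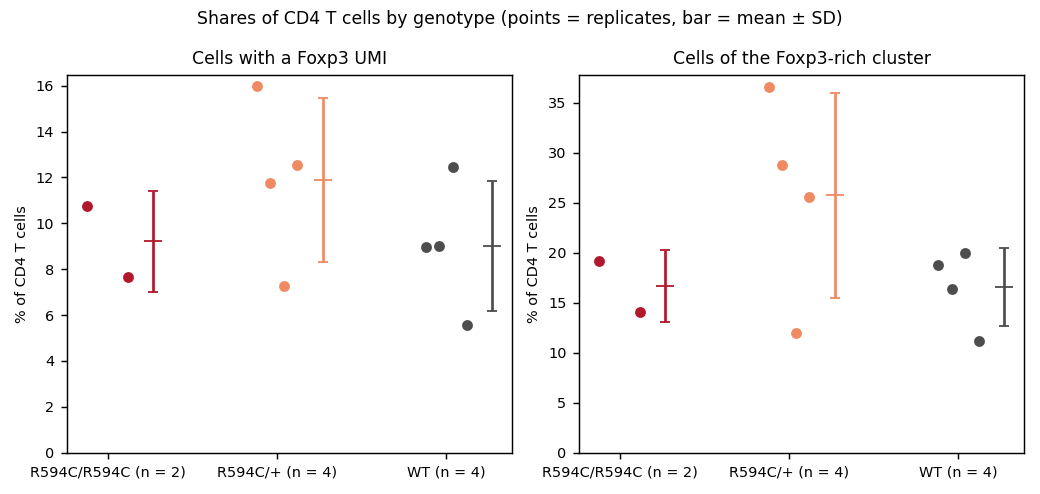
Foxp3-positive cells (left) and Foxp3-rich cluster cells (right) as percent of the CD4 T cells of a replicate, for R594C/R594C, R594C/+ and WT, with points for replicates and the mean with SD. The genotypes overlap in both panels, and R594C/+ has the widest spread, from 7.27% to 16.0% Foxp3-positive cells.

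Levels of the 10 genes within a class were then compared between genotypes, with UMIs summed per replicate and class and tested over all genes by edgeR. In the Foxp3-rich cluster all 10 genes could be tested, and 0 were called in R594C/R594C against WT, R594C/+ against WT or R594C/R594C against R594C/+. The shares of all 6020 genes that were called were 0.0332%, 0.166% and 0.0831%. DESeq2 also called 0 of the 10, and at an unadjusted p under 0.05 edgeR counted 1, 0 and 1. The median log2 fold of the 10 genes was 0.06 for R594C/R594C minus WT, and that of all genes was -0.00.

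Foxp3 had a log2 fold of 0.22 for R594C/R594C minus WT (SE 0.16, edgeR adjusted p 0.964) and 0.24 for R594C/+ minus WT (SE 0.14, edgeR adjusted p 0.803) within the Foxp3-rich cluster. The lowest unadjusted p-values belonged to Izumo1r, with 643 and 676 CPM in R594C/R594C, 799, 860.2, 896 and 859 CPM in R594C/+ and 938, 873, 709 and 904 CPM in WT. Both R594C/R594C replicates were below all others. The log2 fold was -0.35 against WT (SE 0.13, unadjusted p 0.00744, edgeR adjusted p 0.64) and -0.37 against R594C/+ (SE 0.13, unadjusted p 0.00505, edgeR adjusted p 0.627), so it did not pass.

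The log2 folds of the other genes in the same cluster lay closer to 0 or had wider errors. Ikzf2 had 2509 and 2337 CPM in R594C/R594C, 2595, 2375, 2178 and 2543 CPM in R594C/+ and 2405, 2408, 2456 and 2518 CPM in WT, a log2 fold of 0.00 for R594C/R594C minus WT (SE 0.10). Icos had a log2 fold of -0.04 (SE 0.12), Ctla4 of 0.01 (SE 0.12), Tnfrsf18 of 0.10 (SE 0.15), Tnfrsf4 of 0.18 (SE 0.12), Il2ra of 0.15 (SE 0.25) and Pdcd1 of -0.02 (SE 0.18) in that comparison. Tigit, at 0.16 (SE 0.51), was measured far less closely.

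No gene of the group was called between genotypes in any other class, in order R594C/R594C minus WT, R594C/+ minus WT and R594C/R594C minus R594C/+. In Foxp3-positive CD4 cells 0 of 9 were called in each, against 0%, 0.116% and 0% of all genes, and Tigit could not be tested. In activated CD4 cells 0 of 8 were called, against 0.0267%, 0.12% and 0.0667%, with Foxp3 and Tigit not tested. In naive CD4 cells 0 of 7 were called, against 0.112%, 0.2% and 0.15%, with Foxp3, Il2ra and Tigit not tested.

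In CD8 T cells 0 of 7 genes were called, against 0.154%, 0.205% and 0.133% of all genes, with Foxp3, Tnfrsf4 and Tigit not tested. In the Gzmk-high cluster 0 of 5 were called, against 0.0556%, 0.139% and 0.389%, and Foxp3, Il2ra, Tnfrsf4, Tigit and Izumo1r were too low to test. In B cells 0 of 8 were called, against 0.203%, 0.44% and 1.42%, with Foxp3 and Tigit not tested. DESeq2 also called 0 in each of these classes. At an unadjusted p under 0.05 edgeR counted 4 of 5 genes in the Gzmk-high cluster for R594C/R594C minus R594C/+, where 6.34% of all genes had one, and 0 or 1 in every other class and comparison. Genes that were too low to test passed no filter in those classes and are not counted as unchanged. Of the 162 log2 folds between genotypes, 101 took the other sign under at least 1 other setting and 61 did not, so most of these differences had no stable direction.

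Icos in CD8 T cells had 210.1 and 200.2 CPM in R594C/R594C, 115, 149, 163 and 164 CPM in R594C/+ and 161, 171, 264 and 168 CPM in WT. Both R594C/R594C replicates were above all 4 of R594C/+, and WT reached higher and lower. The log2 fold for R594C/R594C minus R594C/+ was 0.40 (SE 0.18, edgeR adjusted p 0.7), and it passed in 2 settings only, without a filter on low counts (0.43, edgeR adjusted p 0.0196) and with the replicate number as a block (0.61, edgeR adjusted p 0.0112). Of the listed genes of the related pathways, 0 were called by edgeR between genotypes in the T cell classes over 711 tests of a gene in a class and comparison, of which 99 (13.9%) had an unadjusted p under 0.05, against 5.51% of 117534 tests of all genes in the same classes and comparisons. Within the Foxp3-rich cluster, 10 of 49 list genes had one for R594C/R594C minus WT, against 5.60% of all genes. The lowest p was that of Cxcr5, the follicular homing receptor, at a log2 fold of -1.17 (SE 0.33, edgeR adjusted p 0.327). The lists were chosen with earlier results of these data known, and these tests share cells, samples and some genes. The shares of unadjusted p-values are therefore descriptions and not a test of the lists. In B cells 1 list gene was called, Sh2d1a, at a log2 fold of -2.04 for R594C/R594C minus R594C/+ (edgeR adjusted p 0.0218).

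Tags of the group differed between genotypes, and how many were called higher or lower depended on the scaling. Over the 7 classes, 48 tests of a tag in a class were made per comparison. These tests are not independent, since 572 of the 643 Foxp3-positive CD4 cells also lie in the Foxp3-rich cluster. Scaled by TMM, which takes the bulk of the 191 tags as constant, 14 were called higher and 12 lower in R594C/R594C minus WT, against 24.9% and 39% of all tags over the classes. In R594C/+ minus WT 9 were called higher and 7 lower, against 15.5% and 22.7%, and in R594C/R594C minus R594C/+ 4 were called higher and 9 lower, against 12.8% and 25.4%. The counts of higher calls rested on single replicates. For R594C/R594C minus WT the count was 8 without R594C/R594C replicate 1. For R594C/+ minus WT it was 5 without R594C/+ replicate 1 or 4, 3 without WT replicate 1, 5 without WT replicate 2 or 4 and 4 without WT replicate 3. For R594C/R594C minus R594C/+ it was 2 without R594C/R594C replicate 1, 2 without R594C/+ replicate 1 and 1 without R594C/+ replicate 3 or 4. These counts come from the model without the replicate number. Tags of same-numbered replicates deviated together in every pair of each class but the Gzmk-high cluster, though weakly in some CD4 pairs. With the number as a block 15 were called higher and 7 lower for R594C/+ minus WT, against 21.1% and 25.1% of all tags.

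Scaled per cell instead, a choice made after the data were seen, 0 were called higher in any of the 3 comparisons by edgeR. At an unadjusted p under 0.05 the counts were 0 in R594C/R594C minus WT, 0 in R594C/+ minus WT and 2 in R594C/R594C minus R594C/+. This fit held genotype only, and no fit per cell with the replicate number as a block was run. In B cells, for R594C/R594C minus WT, its SE was 0.47 for CD357 and 0.75 for CD134. The lack of higher calls does not show that levels were alike. The counts of lower calls were 18 in R594C/R594C minus WT, 16 in R594C/+ minus WT and 14 in R594C/R594C minus R594C/+. Among all tags 1.15%, 0.0957% and 1.24% were then called higher and 54.5%, 46.2% and 39.6% lower in the same order. The member tags called lower in R594C/R594C minus WT all had class means within the range of the isotype control means of that class. They were CD152 in every class and CD25, CD279 and TIGIT in naive CD4, CD8 T and B cells. CD25 in activated CD4 cells and CD278 in B cells completed them. The lower calls of the other comparisons were among these. By TMM, 6 of 6 isotype controls were called lower in naive CD4, CD8 T and B cells for R594C/R594C minus WT. The median log2 fold of all tags per cell in the Foxp3-rich cluster was -1.01 for R594C/R594C minus WT and -0.57 for R594C/+ minus WT.

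CD357 in the Foxp3-rich cluster had a log2 fold of 0.79 for R594C/R594C minus WT by TMM (SE 0.13, edgeR adjusted p 3.5e-04) and of 0.10 per cell (edgeR adjusted p 0.613). CD279 had 0.62 by TMM (SE 0.18, edgeR adjusted p 0.00917) and -0.07 per cell (edgeR adjusted p 0.738). Of all tags of the cluster 23.7% were called higher and 38.8% lower by TMM. R594C/+ minus WT called the same 2 tags higher by TMM, CD357 at 0.61 and CD279 at 0.60, against 14.5% of all tags higher and 18.4% lower, and per cell they had 0.13 and 0.13. The CD279 calls did not hold with every replicate left out in turn. In R594C/R594C minus WT the log2 fold ranged from 0.38 to 0.80 with 1 replicate left out, and the call was lost without R594C/R594C replicate 2, R594C/+ replicate 1 or 4, or WT replicate 1, 3 or 4 (edgeR adjusted p 0.0638 to 0.174). In R594C/+ minus WT it ranged from 0.40 to 0.69, and the call was lost without R594C/+ replicate 1 or 4, or WT replicate 1, 3 or 4 (edgeR adjusted p 0.0633 to 0.148).

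CD152 was the member tag that fell under both scalings in the Foxp3-rich cluster. It averaged 0.0513 UMIs per cell in R594C/R594C (n = 2), 0.189 in R594C/+ and 0.404 in WT (n = 4 each), a log2 fold of -2.31 by TMM and -2.98 per cell for R594C/R594C minus WT. The isotype controls moved with it. The rat IgG1 lambda control averaged 0.119, 0.373 and 0.828 UMIs per cell in R594C/R594C, R594C/+ and WT, and 3 of 4 tested controls were called lower in R594C/R594C minus WT. Ctla4 RNA had a log2 fold of 0.01 in the same comparison.

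The Gzmk-high CD8 cluster held the widest spread of Pdcd1 between replicates among the 7 classes. Pdcd1 had 495 and 101 CPM in the R594C/R594C replicates, 91.9, 142, 72.5 and 64.3 CPM in R594C/+ and 67.6, 112, 201 and 252 CPM in WT. R594C/R594C replicate 1 was above all others, and replicate 2 of the same genotype lay within the range of both other genotypes. The log2 fold was 1.23 for R594C/R594C minus WT (SE 0.63, edgeR adjusted p 0.811) and 1.87 for R594C/R594C minus R594C/+ (SE 0.60, unadjusted p 0.0158, edgeR adjusted p 0.597).

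In the same cluster Ctla4 had 307 and 244 CPM in R594C/R594C, 229.9, 98.4, 89.7 and 129 CPM in R594C/+ and 98.8, 174, 234 and 223 CPM in WT. Both R594C/R594C replicates were above all others. Its log2 fold for R594C/R594C minus R594C/+ was 1.07 (SE 0.31, edgeR adjusted p 0.279). Ikzf2 had 0.80 (SE 0.28, edgeR adjusted p 0.449) and Tnfrsf18 0.83 (SE 0.36, edgeR adjusted p 0.703). None of these passed, and some passed in other settings. Without R594C/R594C replicate 2 Pdcd1 passed at 2.34 and Ikzf2 at 1.03. Ctla4 passed without R594C/+ replicate 1 at 1.44, without WT replicate 1 at 1.06 (edgeR adjusted p 0.0395) and without a filter on low counts at 1.07 (edgeR adjusted p 0.00212). Pdcd1 against WT passed at 1.72 without R594C/R594C replicate 2 (edgeR adjusted p 0.0364) and was -0.55 without R594C/R594C replicate 1. Without that replicate the log2 folds for R594C/R594C minus R594C/+ were 0.06 for Pdcd1 and 0.09 for Ikzf2. Leaving out either R594C/R594C replicate leaves 1 sample of that genotype, which the fit assumes to vary like the other groups.

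The tags of the cluster showed the same replicate. CD279 had 1.33 and 0.435 UMIs per cell in R594C/R594C, 0.338, 0.505, 0.320 and 0.321 in R594C/+ and 0.469, 0.50, 0.522 and 0.711 in WT. TIGIT protein had 1.00 and 0.391 UMIs per cell in R594C/R594C, 0.419, 0.464, 0.290 and 0.283 in R594C/+ and 0.50, 0.231, 0.478 and 0.667 in WT. In R594C/R594C minus WT 2 of 6 tags were called higher by TMM, against 15.6% of 109 tags, CD279 at 1.26 (SE 0.39, edgeR adjusted p 0.023) and TIGIT at 1.17 (edgeR adjusted p 0.0319). Per cell they were 0.72 and 0.59, and neither passed. Without R594C/R594C replicate 1 the CD279 log2 fold was 0.28 (edgeR adjusted p 0.606). In R594C/R594C minus R594C/+ 1 of 6 was called higher, CD279 at 1.46 (edgeR adjusted p 0.0345), against 0.917% of tags.

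The size and make-up of the cluster varied too. It took 3.17% and 0.633% of the cells of the R594C/R594C replicates, 1.27% to 3.22% in R594C/+ and 0.733% to 2.17% in WT. Cells with 10 or more CD4 UMIs and at most 4 CD8 UMIs made up 34.9% and 10.9% of it in R594C/R594C, 14.4% to 29.7% in R594C/+ and 14.1% to 38.5% in WT, so the cluster is not made of CD8 T cells alone. Transcripts of 7 natural killer cell markers summed to 990 to 1456 CPM in R594C/R594C, 1209 to 2166 CPM in R594C/+ and 981 to 3556 CPM in WT. The part of either in the Pdcd1 levels was not tested.

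**Figure D5:**
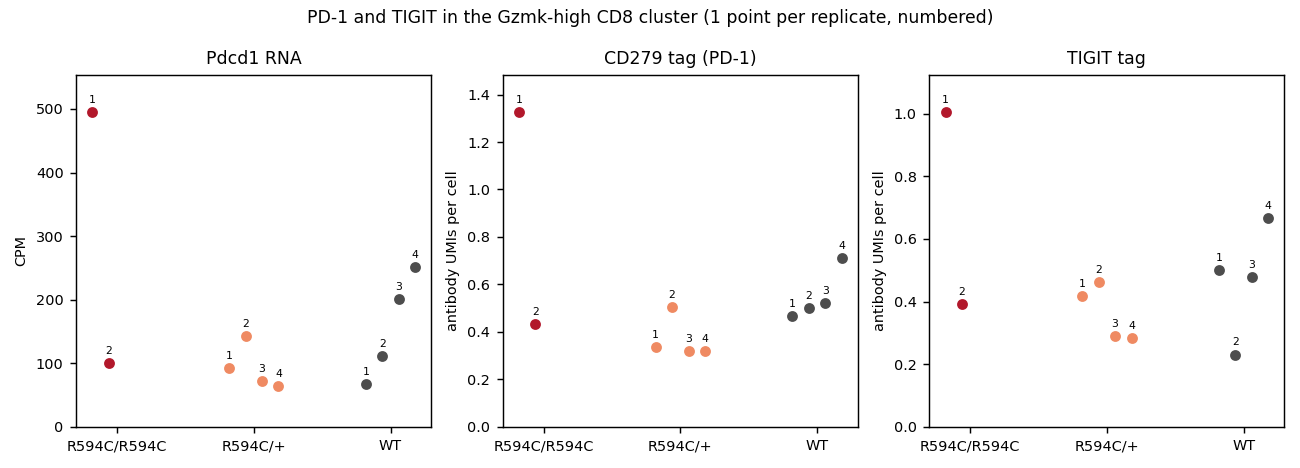
Pdcd1 RNA (CPM), CD279 tag and TIGIT tag (UMIs per cell) in the Gzmk-high CD8 cluster, with 1 numbered point per replicate of R594C/R594C, R594C/+ and WT. R594C/R594C replicate 1 is the highest point in all 3 panels, with 495 CPM of Pdcd1 and 1.33 UMIs of CD279 per cell, and replicate 2 lies among the other genotypes.

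Some of the genes were also seen outside the T cell classes. Of the 1968 Ctla4 UMIs in B cells, 1622 (82.4%) came from 1 cluster of 1874 cells, which held 8.99% of the B cells and was led by Apoe, Bhlhe41, Dnm3, Zbtb20, Zbtb32 and Nt5e. In that cluster Ctla4 had 246 and 188 CPM in R594C/R594C, 122, 93.3, 153 and 142 CPM in R594C/+ and 117, 216, 169 and 99.1 CPM in WT. Both R594C/R594C replicates were above all 4 of R594C/+ and overlapped with WT. The cluster held 421 cells of R594C/R594C, 876 of R594C/+ and 577 of WT, so the Ctla4 values of all B cells combine its level with its share of the cells. In B cells as a whole, Ctla4 had 28.1 and 24.0 CPM in R594C/R594C, 34.9, 19.4, 34.4 and 33.4 CPM in R594C/+ and 22.5, 50.0, 16.8 and 18.6 CPM in WT. The genotypes overlapped.

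Pdcd1 and Ikzf2 were high in a cluster of 157 cells led by Trdc, Cd7, Pdcd1, Klrc1 and Cd160, with medians of 748 CPM of Pdcd1 (409 to 867) and 1055 CPM of Ikzf2 (666 to 1234) over 6 replicates with enough cells. Icos, Il2ra and Tnfrsf18 were found in a cluster of 255 cells led by Cxcr6, Il4, Ifng and Itga1, with medians of 767, 99.7 and 222 CPM over 9 replicates. Tnfrsf4 was seen in a cluster of 110 cells led by Fscn1, Apol7c and Il12b, at 0 to 285 CPM (median 117, 7 replicates).

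For each gene, the 3 genes with the most similar levels were sought over 50 sums of a class and a replicate, by Pearson correlation of log2(CPM + 1) among 7824 genes. These are descriptions, since the points share cells, depth and classes. Foxp3 was most like Lrrc32 (0.956), Neb (0.954) and Klrg1 (0.942). Its levels were set in part by selection, since cells with a Foxp3 UMI were taken out of the naive and activated CD4 classes. The Foxp3-positive class was chosen by the same UMI. The correlations of Foxp3 therefore cannot tell genes that follow its level from genes that only separate these classes. Ikzf2 was most like Gm28112 (0.969), Tnfrsf18 (0.946) and Rora (0.945), and Il2ra like Tnfrsf1b (0.938), Nfkb1 (0.937) and Areg (0.928).

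The members of the group were among each other's nearest genes in a few cases. Tnfrsf4 was most like Ctla4 (0.978), Tiam1 (0.974) and Trp53inp1 (0.974), and Ctla4 like Tiam1 (0.980), Tnfrsf4 (0.978) and Sdf4 (0.975). Tnfrsf18 was most like H2az1 (0.974), Aopep (0.969) and Batf (0.958). Icos was most like Tox (0.990), Cd5 (0.989) and Fyn (0.986), genes that naive and CD8 T cells also hold. Pdcd1 was most like Ndfip1 (0.966), Trp53inp1 (0.965) and Rgs16 (0.964), Tigit like Areg (0.933), Ubald2 (0.928) and Sdf4 (0.920), and Izumo1r like Gm37033 (0.970), Nrip1 (0.967) and Itpkb (0.961).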

How the data were processed

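The authors deposited, for each of the 3 captures, raw UMI counts of genes, antibody tags and hashtags per cell barcode, made with Cell Ranger 5.0.0 per the file headers. The submitters' processing notes also name STAR, Seurat 3.1.4 and the build mm10. The files hold 74538447, 87953814 and 74546390 RNA UMIs and 8702246, 8875461 and 7427955 antibody UMIs for R594C/R594C, R594C/+ and WT.

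Barcodes under 200 genes or over 10% of mitochondrial UMIs were dropped, and the others were given to replicates with HTODemux (Seurat 5.3.0, quantile 0.99). Hashtag doublets (1543, 1837 and 1295), barcodes with no hashtag (193, 591 and 1763) and further likely doublets of 1 hashtag (1548, 638 and 432, by similarity to simulated doublets) were left out, in the same order of genotypes. Cells were clustered from 2000 variable genes without the 10 genes of this report, 30 components and 20 neighbours, with Leiden (leidenalg 0.10.2, resolution 1.5), into 43 clusters. Genes of the marker lists counted as passed in a cluster at 2 times the level of the other cells and in at least 10% of its cells.

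UMI counts were summed per replicate and class with at least 10 cells and tested with edgeR 4.0.16 (quasi-likelihood, TMM, genes kept by filterByExpr, genotype only), with Benjamini-Hochberg adjusted p-values and a threshold of 0.05. DESeq2 1.42.0 (R 4.3.3), no filter, each replicate left out, expressed sex as a term, a margin rule for hashtags and doublets kept were alternatives. Tags needed a mean of 10 UMIs per replicate. T cells were gated on antibody UMIs: CD4 at 10 or more or CD8 at 5 or more, at most 4 of the other of these, and TCR beta at 1 or more, with a further antibody limit that is not reported here. The planned gate on CD44 was dropped because that tag held almost no UMIs, so CD62L alone was used, with 2 or more UMIs as high and 0 as low. Shares were compared by exact permutation tests (scipy 1.17.1), and binomial intervals are exact at 95%. Intervals and the limit for a count of 0 (3 counts) cover counting error only. The scripts that run across genes were tested on simulated counts. Replicate numbers 1 and 2 recur in every capture, and 3 and 4 in those of R594C/+ and WT. For RNA, checked in B and naive CD4 cells only, the deviations of same-numbered replicates had correlations of -0.13 to 0.33. Replicate 2 of WT and of R594C/R594C gave 0.33 in B cells and 0.24 in naive CD4 cells. The numbers were not taken to pair the samples for RNA, and the other classes were not checked. The tags are described with the limits below.

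The 10 genes and the lists were chosen with earlier results of these data known. All 10 are described over the classes, and of each related list the 2 called genes with the largest change and up to 4 others for their role. The Foxp3-rich and Gzmk-high classes, the Foxp3-positive against Foxp3-negative gate, the tag comparison of clusters and the scaling per cell were added after the data had been seen.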

Additional observations from a re-analysis of the deposited data

Results flagged for a closer look

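In groups of 4 replicates, a value was picked out when its gap to the nearest other replicate exceeded Dixon's 95% critical share of the group's range. Of 132 groups 10 met this, and chance picks about 1 in 20.

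In naive CD4 cells R594C/+ replicate 1, with 49 cells, was the highest of its group for Ikzf2, at 146 CPM from 24 UMIs against 13.4 to 31.0 in the others, and for Icos, at 432 CPM against 292 to 315. In the Foxp3-rich cluster the same replicate was the highest for Tnfrsf18, at 534 CPM against 375 to 402. WT replicate 2 was the highest of WT for Ctla4 there, at 1642 CPM against 1236 to 1298.

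In Foxp3-positive CD4 cells WT replicate 4, with 26 cells, was the lowest of WT for Tnfrsf18, at 323 CPM against 453 to 472. In the same class R594C/+ replicate 1 was the lowest for Tigit, at 19.0 CPM from 4 UMIs against 31.1 to 33.3. The TIGIT tag was highest in WT replicate 1, at 2.20 UMIs per cell against 1.35 to 1.43 in the other WT replicates, and lowest in R594C/+ replicate 3, at 0.889 against 1.72 to 1.85.

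WT replicate 3 was the highest of WT for Icos in CD8 T cells, at 264 CPM against 161 to 171. R594C/+ replicate 2 was the lowest of its genotype for Ctla4 in B cells, at 19.4 CPM against 33.4 to 34.9.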

How the results depend on the processing

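Of the 560 recomputed summary values under other settings, 527 were classed as kept, 27 as moved and 6 as reversed. Most were counts of called genes or tags, classed as kept when equal or close to the main count. Many counts of genes called between genotypes were 0 in every setting. Differences in shares were classed by their sign and side of the threshold. Of 844 recomputed values of single genes or tags, 782 kept their sign and side of the threshold. A call was gained in 16 and lost in 34, and 12 reversed, without a tested cause. The genes called numbered 9 or 10 of 10 between CD4 and CD8 T cells and between the CD62L gates, and 8 or 9 of the 9 without Foxp3 between Foxp3-positive and Foxp3-negative cells. Tigit was the gene not called, or not tested without the block. In these counts Foxp3 (CD4 and CD8 T cells) and Tigit (CD62L gates) rest on few UMIs in the lower group.

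Between genotypes, the count of 0 genes called became 1 in CD8 T cells (R594C/R594C minus R594C/+) without a filter and with the replicate block, Icos both times. In the Gzmk-high cluster it became 1 without a filter and 0 to 2 when replicates were left out (R594C/R594C minus R594C/+), and 0 to 1 for R594C/R594C minus WT. Pdcd1 there ranged from -0.55 (without R594C/R594C replicate 1) to 1.72, and Ctla4 in B cells from -0.25 to 0.44 (without WT replicate 2), when replicates were left out of R594C/R594C minus WT.

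Scaling per cell, fitted without the replicate number, gave 0 tags called higher in all 3 genotype comparisons. It gave 16 lower for R594C/+ minus WT and 14 for R594C/R594C minus R594C/+. It turned CD279 in the Foxp3-rich cluster to -0.072 and CD357 in B cells to -0.42 (R594C/R594C minus WT). DESeq2 called 4 and 5 tags lower for R594C/+ minus WT and R594C/R594C minus R594C/+. Without single replicates, tags called higher numbered 8 to 13 for R594C/R594C minus WT (8 without R594C/R594C replicate 1), 3 to 9 for R594C/+ minus WT (3 without WT replicate 1) and 1 to 4 for R594C/R594C minus R594C/+ (1 without R594C/+ replicate 3). With the replicate number as a block, 15 tags were called higher for R594C/+ minus WT.

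Between Foxp3-positive and Foxp3-negative cells, CD152 was 0.091 with DESeq2, 0.12 without a filter and -0.12 to 0.19 without single replicates, and CD134 ranged from -0.013 to 0.37. Tags called between the Foxp3-rich and activated clusters numbered 3 to 6 without single replicates.

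The Foxp3-positive share changed sign with antibody gates (-0.499 percentage points for R594C/R594C minus WT and a correlation of -0.00856 with alleles), and of activated and Foxp3-rich cells only (-0.590 for R594C/+ minus WT). Without single replicates the R594C/R594C minus WT difference ranged from -1.33 to 1.77 and the correlation from -0.0740 to 0.349.

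Same-numbered replicates deviated together in tags of B cells (correlations 0.384 to 0.712), CD8 T cells (0.122 to 0.606) and the Foxp3-rich cluster (0.151 to 0.579). The lowest correlation was smaller in naive (0.0308), activated (0.0223) and Foxp3-positive CD4 cells (0.0927). It was negative only in the Gzmk-high cluster (-0.0332). Differently numbered replicates reached correlations of 0.642, 0.604 and 0.403 in B cells, CD8 T cells and the Foxp3-rich cluster, so the ranges overlap. The pairing rests on the data and not on the labels. With the block CD357 in B cells was called for R594C/R594C minus WT, at 1.15 (edgeR adjusted p 1.8e-05), against 0.92 (0.0512) without it. CD279 in the Gzmk-high cluster, where the numbers did not pair, was 1.21 with the block (edgeR adjusted p 0.059) for R594C/R594C minus WT. Tigit, with few UMIs, could be tested between genotypes in the Foxp3-rich cluster only.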

Other observations

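The CD357 and CD134 tags followed the replicate number in all 3 captures. In B cells CD357 had 6.44 UMIs per cell in replicate 1 and 3.64 in replicate 2 of R594C/R594C. In R594C/+ replicates 1 to 4 the values were 9.04, 4.00, 5.39 and 9.88, and in WT replicates 1 to 4 they were 8.56, 4.20, 4.78 and 9.45. Replicates 1 and 4 were thus above replicates 2 and 3 in both captures that held 4. CD134 had 0.249 and 0.0527 UMIs per cell in R594C/R594C, 0.362, 0.0961, 0.182 and 0.367 in R594C/+ and 0.351, 0.126, 0.168 and 0.370 in WT, in the same order of replicates.

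Il2ra was highest, among clusters of at least 30 cells, in a cluster of 40 cells led by Il22, a cytokine of innate and helper lymphocytes, at 419 CPM. That cluster was too small to be divided by replicate.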
